A study of Mus musculus with 12 samples.

Results

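The genes of cholesterol synthesis and sterol transport were followed in mouse retina. The members were 30 genes chosen by symbol and found in the gene tables by Ensembl ID, 30 of 54532 rows, and all 30 were among the 18299 genes that passed the expression filter and were tested. They comprised 18 synthesis enzymes (7 of the early pathway to farnesyl diphosphate and 11 of the squalene and sterol branch), 5 genes of SREBP control, 6 genes of uptake, transport and efflux, and 1 oxysterol enzyme.

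Retinal RNA was sequenced in 12 libraries, 3 in each of 4 groups, from wild type C57BL/6 mice aged 13 weeks, which were female by the study's methods. SHAM mice were the sham control. MOG mice were immunized with a myelin oligodendrocyte glycoprotein peptide in complete Freund's adjuvant with mycobacterium, followed by pertussis toxin, which induces experimental autoimmune encephalomyelitis with optic neuritis. GB20 and GV16 mice were immunized in the same way and then needled repeatedly on both sides at the acupoint GB20 or at the nearby acupoint GV16, the control site, under xylazine and ketamine, and whether SHAM and MOG mice received the anaesthetic was not given in the sources used here. Each experiment used a few mice per group and was repeated 3 times by the study's methods, so a library can hold RNA of more than 1 mouse. The p-values measure only the spread between these libraries. Total counts ranged from 15860278 (GV16 replicate 2) to 19194280 (GB20 replicate 1).

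Cholesterol is made from acetyl-CoA through mevalonate, farnesyl diphosphate, squalene and lanosterol. Transcription of these enzymes is driven by SREBP2, encoded by Srebf2, which SCAP escorts from the endoplasmic reticulum when sterols are low and which the INSIG proteins hold back when sterols are high. The retina makes part of its own cholesterol, takes up lipoproteins and removes the excess by efflux and by oxidation to oxysterols.

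Levels were compared between genes per length, as FPKM, which scales fragments by gene length and library size. In SHAM retinas Insig1, the sterol-regulated anchor of SCAP, had the highest level of the members at 30.8 ± 2.79 FPKM (SD, n = 3). Hmgcs1, the cytosolic HMG-CoA synthase, followed at 26.3 ± 2.67 FPKM, and Srebf2 at 25.2 ± 0.376 FPKM. At the low end, Hsd17b7, a sterol ketoreductase, had 3.19 ± 0.223 FPKM, and Fdps, farnesyl diphosphate synthase, had 0.690 ± 0.0467 FPKM. Of 29 neighbouring pairs in the order, 23 differed by less than their combined SD on the log2(FPKM + 1) scale, so most of the order between these ends was not resolved. Fdps was counted with 34 to 62 reads per library, and 26.7% of its exon bases overlap Gm43738 on the same strand, so its level is uncertain. Gm43738 itself had 0 to 4 counts per library.

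**Figure D1:**
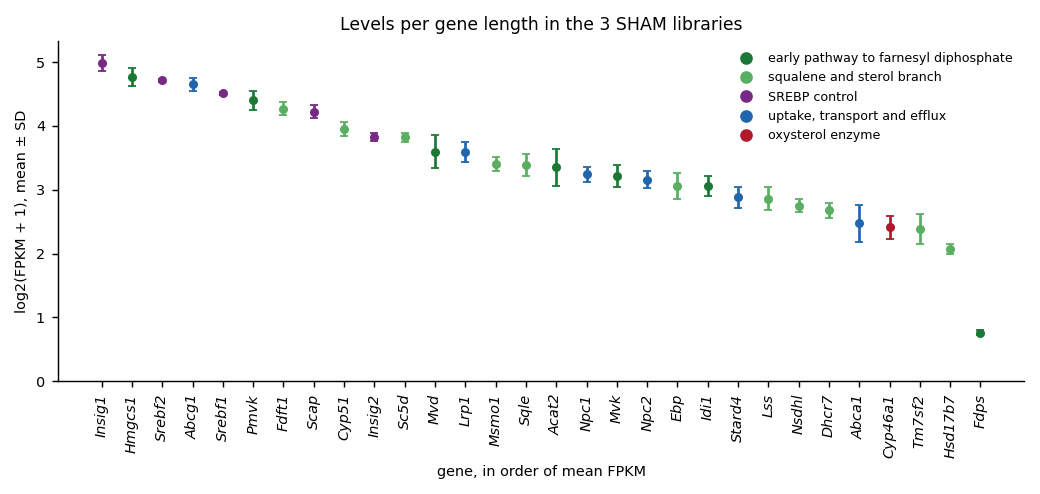
Level of each of the 30 genes in SHAM retinas, as log2(FPKM + 1), mean ± SD of 3 libraries, coloured by role and ordered by mean FPKM. Insig1 is highest at 4.99 and Fdps lowest at 0.76.

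The most abundant members of the other roles by mean FPKM over 12 libraries were Fdft1 in the squalene and sterol branch (16.6), Abcg1 in uptake, transport and efflux (24.4) and Cyp46a1, the only oxysterol enzyme (3.82). The deposited FPKM used a length of 4091 bases for Abcg1, against 7298 exon bases in the annotation used here, and 5627 against 4403 bases for Tm7sf2, so the places of both in the order are uncertain. Fdft1, squalene synthase, shares 18.3% of its exon bases with Ctsb on the other strand, which had 5224 to 6443 counts per library, and without a stated strand setting reads of the 2 genes cannot be told apart there. Hmgcs1 shares 12.1% with the antisense gene Gm48342, which had 4 to 11 counts. Exon overlaps were also present for Tm7sf2 (12.1%, same strand) and Scap (13.2%, other strand), and were under 10% for Idi1, Lss, Cyp51, Srebf1 and Npc1.

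Insig1 (ENSMUSG00000045294, chr5:28071363-28078662, + strand, GRCm38) and Hmgcs1 (ENSMUSG00000093930, chr13:119690379-119708260, + strand) were the members called lower together in a comparison, GV16 against SHAM. Their promoters are therefore shown, 5′ to 3′, from RefSeq (GRCm38.p6), with capitals at matches to the sterol response element searched as TCACNCCAC and to the inverted CCAAT box ATTGG, both on either strand. The Hmgcs1 stretch is chr13:119690101-119690350 (250 bases) and the Insig1 stretch is chr5:28071162-28071362 (201 bases), and both end before the annotated start of the gene.
Hmgcs1: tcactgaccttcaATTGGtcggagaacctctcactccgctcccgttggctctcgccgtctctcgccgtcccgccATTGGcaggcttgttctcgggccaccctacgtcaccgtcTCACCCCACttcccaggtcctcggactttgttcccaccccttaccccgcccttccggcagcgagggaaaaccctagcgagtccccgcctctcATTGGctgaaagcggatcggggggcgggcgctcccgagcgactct
Insig1: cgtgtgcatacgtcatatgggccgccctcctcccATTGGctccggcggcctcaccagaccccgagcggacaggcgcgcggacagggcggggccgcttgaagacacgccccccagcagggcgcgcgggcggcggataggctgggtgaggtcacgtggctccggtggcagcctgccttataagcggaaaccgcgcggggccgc
The Hmgcs1 stretch held 1 match to TCACNCCAC and 3 to ATTGG, and the shorter Insig1 stretch held 0 and 1. A promoter sequence was at hand for 24 members. In the 250 bases before the start, TCACNCCAC matched in 1 of 32 promoters of these members, against 1.05% of all 32851 promoters, and ATTGG in 21 of 32, against 33.8% of all promoters. These matches describe letters and were not tested. Fdps, Fdft1, Sqle, Stard4, Abcg1 and Npc1 are named only.

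The comparison of MOG with SHAM asked what differed in the retina after immunization. Whether SHAM mice received adjuvant or pertussis toxin was not given in the sources used here, so the peptide's part cannot be told apart. Cyp46a1, the neuronal cholesterol 24-hydroxylase, had the smallest p of the members. Its levels were 13.1, 17.1 and 13.2 CPM (counts scaled to library size by TMM) in the SHAM libraries, 11.1, 11.2 and 9.85 CPM in the MOG libraries, 11.6, 13.1 and 12.6 CPM in the GB20 libraries and 11.5, 12.7 and 14.9 CPM in the GV16 libraries. All 3 MOG libraries lay below all 3 SHAM libraries, and the fitted log2 fold change was -0.43 (SE 0.130), or -0.28 without SHAM replicate 2. Pmvk, phosphomevalonate kinase, had 34.4, 38.9 and 31.5 CPM in SHAM and 30.9, 25.2 and 30.7 CPM in MOG, again without overlap, and 32.5, 33.6 and 31.1 CPM in GB20 and 32.4, 32.3 and 31.9 CPM in GV16. Its log2 fold change in MOG vs SHAM was -0.27 (SE 0.0936), and -0.18 without SHAM replicate 2, without MOG replicate 2 or with the trend on gene length removed. Neither passed the test, with adjusted p = 0.127 for Cyp46a1 and 0.202 for Pmvk (edgeR quasi-likelihood F test, adjusted by Benjamini and Hochberg).

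With that test 0 of 30 members were called in MOG vs SHAM, against 1.34% of all genes tested. DESeq2 and limma-voom also called 0. At an unadjusted p under 0.05 there were 6 members (Hmgcs1, Pmvk, Fdft1 and Cyp46a1 lower, Srebf1 and Lrp1 higher), against 13% of all genes. Groups did not overlap for 4 members of 30, against 16.2% of genes. The median log2 fold change of the 18 synthesis enzymes was -0.091, beside -0.0023 over all genes tested, with 12 of 18 below 0 and 50.5% of all genes below 0. That median moved with single libraries, to -0.14 when SHAM replicate 3 was left out and to -0.023 for SHAM replicate 2, -0.032 for SHAM replicate 1 and -0.048 for MOG replicate 1, and with gene length, to -0.037 with each library's trend on length removed.

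GV16 against SHAM was the comparison in which members were called. Insig1 had 106, 93.9 and 89.1 CPM in SHAM, 85.8, 93.4 and 87.4 CPM in MOG, 87.7, 79.7 and 71.4 CPM in GB20 and 74.7, 69.2 and 69.0 CPM in GV16. The 3 GV16 libraries were below every SHAM and MOG library, and the highest GB20 value lay within the MOG range. Insig1 fell in GV16 against SHAM, with a log2 fold change of -0.44 (SE 0.0816, 0.737-fold) and adjusted p = 0.00906 in the Benjamini-Hochberg adjusted edgeR fit.

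Hmgcs1 had 132, 126 and 108 CPM in SHAM, 112, 103 and 109 CPM in MOG, 95.7, 105 and 96.1 CPM in GB20 and 105, 82.0 and 90.8 CPM in GV16. All GV16 libraries lay below all SHAM libraries, although GV16 replicate 1 came close to SHAM replicate 3. Hmgcs1 fell, with a log2 fold change of -0.40 (SE 0.0861, 0.757-fold) and adjusted p = 0.0261 in the same edgeR test.

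These were 2 of 30 members, against 0.656% of all genes, and DESeq2 and limma-voom on 12 libraries called the same 2. With the replicate number as a block, 236 genes were called in place of 120, and the same 2 members. At an unadjusted p under 0.05 there were 12 members, 11 lower and 1 higher, against 10.9% of genes. The lower ones were Acat2 (log2 fold change -0.41, SE 0.129), the cytosolic acetyl-CoA acetyltransferase that opens the pathway, Mvd (-0.40, SE 0.127), Nsdhl (-0.36, SE 0.125), Hmgcs1, Fdft1, Cyp51, Tm7sf2, Dhcr7, Srebf2, Insig1 and Stard4, and the higher one was Abca1. Groups did not overlap for 9 members (8 lower, and Insig2 higher), against 14.5% of genes. Both calls depended on single libraries: leaving out SHAM replicate 1, GV16 replicate 2 or GV16 replicate 3 gave 0 called members, leaving out SHAM replicate 2 gave Insig1 alone, and leaving out SHAM replicate 3 gave 5. With edgeR on the 6 libraries of the 2 groups Insig1 alone was called, and Hmgcs1 was at -0.40 with adjusted p = 0.144 in that fit. DESeq2 on the same 6 libraries called both. Without the low-count filter 4 members were called. Across 12769 genes, which are not independent replicates, the fold change correlated with gene length at a Spearman rho of 0.249 in this comparison, 0.322 in MOG vs SHAM and 0.0176 in GB20 vs SHAM. With each library's trend on length removed Insig1 was at -0.40 and Hmgcs1 at -0.38, and both were still called. With the block and the trend removed together, a fit chosen after seeing the data, Insig1, Hmgcs1 and Fdft1 were called.

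**Figure D2:**
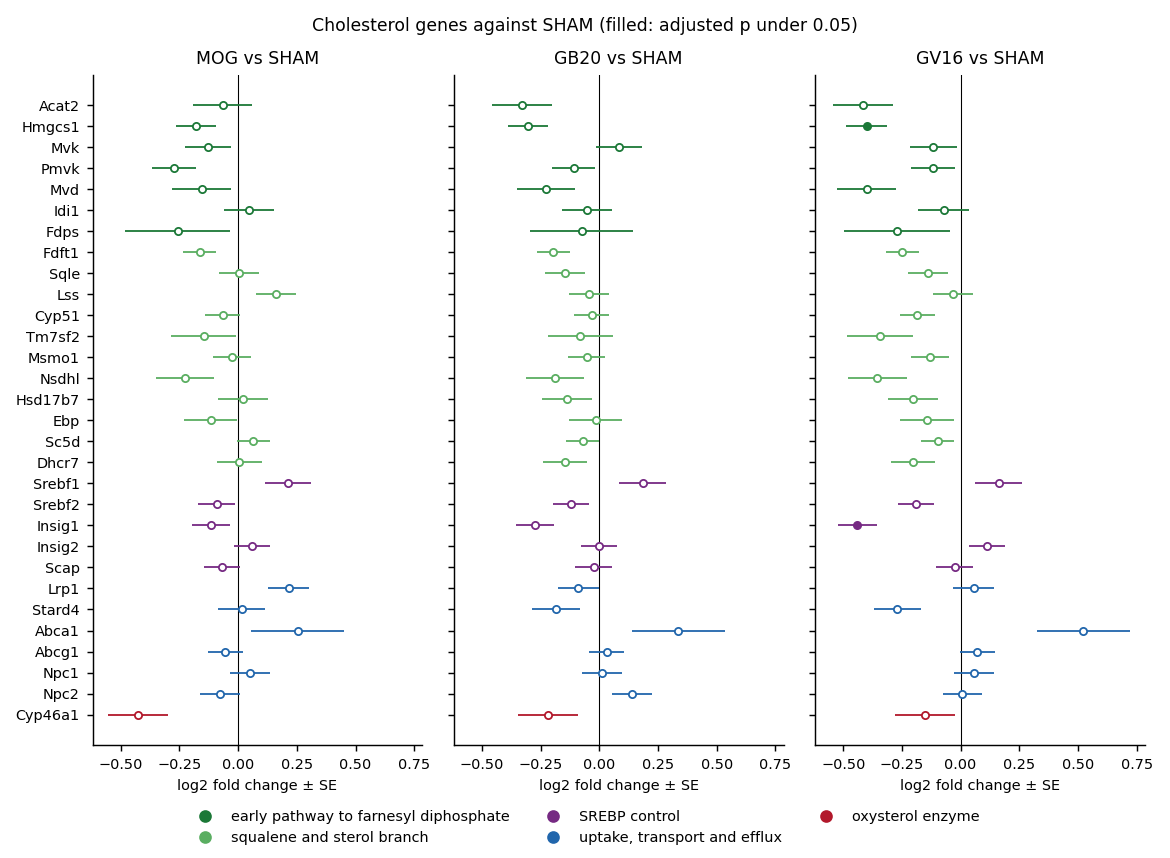
Fitted log2 fold change ± SE of the 30 genes in pathway order, for MOG, GB20 and GV16 against the same 3 SHAM libraries. Filled points passed an adjusted p under 0.05, which in these panels are Hmgcs1 at -0.40 and Insig1 at -0.44 in GV16 vs SHAM.

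The other enzymes showed the same direction with smaller or less certain values. Enzymes were measured in the same libraries and listed with earlier results known, so counts of enzymes below 0 do not count independent replicates. All 18 synthesis enzymes had a fitted value below 0 in GV16 vs SHAM, from -0.41 for Acat2 to -0.034 for Lss, lanosterol synthase, with a median of -0.19 beside -0.0041 over all genes, of which 51% were below 0. Fdft1 had 81.8, 81.1 and 71.7 CPM in SHAM, 71.5, 69.3 and 68.6 CPM in MOG, 69.1, 69.4 and 66.3 CPM in GB20 and 68.1, 64.6 and 64.8 CPM in GV16. Every immunized library was below every SHAM library, and the GV16 difference had a log2 fold change of -0.25 (SE 0.0700) that did not pass the test. Cyp51, lanosterol demethylase, had 71.1, 62.3 and 61.3 CPM in SHAM, 61.6, 64.0 and 60.3 CPM in MOG, 65.6, 60.9 and 63.6 CPM in GB20 and 55.0, 60.2 and 56.1 CPM in GV16, the last group lowest and without overlap with any other.

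Averaged over the 18 enzymes, log2 CPM relative to the SHAM mean was 0.071, 0.040 and -0.11 for the SHAM libraries and -0.10, -0.042 and -0.10 for the MOG libraries. It was -0.055, -0.14 and -0.15 for the GB20 libraries and -0.20, -0.26 and -0.18 for the GV16 libraries. The 3 GV16 libraries were the lowest of the 12, while SHAM replicate 3 lay among the MOG and GB20 libraries. Fewer cells of a type and less RNA per cell cannot be told apart in these whole-retina libraries.

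**Figure D3:**
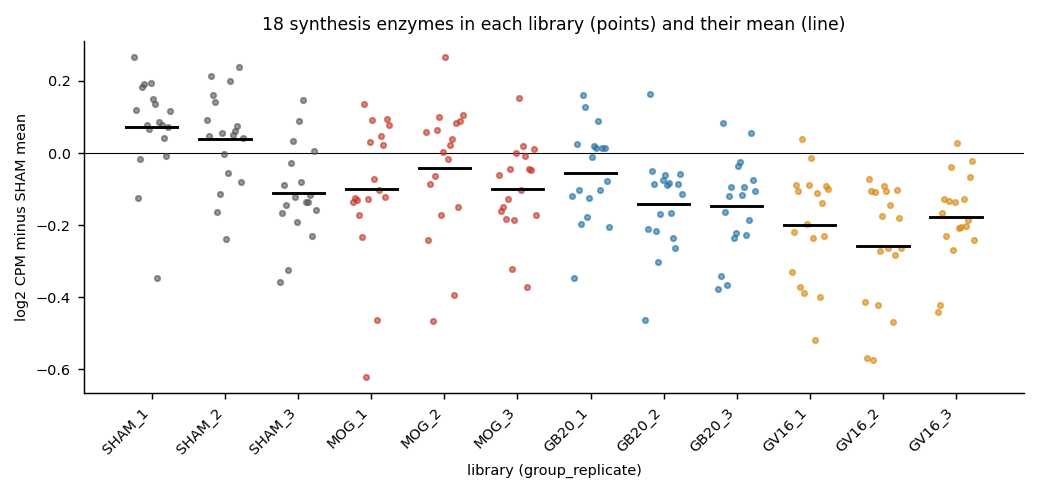
Log2 CPM of each of the 18 synthesis enzymes minus its SHAM mean (points) in each of the 12 libraries, with the mean over enzymes (line). The GV16 means, from -0.26 to -0.18, are below those of the other libraries, the lowest of which is -0.15.

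Of the 5 SREBP control genes 3 were fitted below 0 and 2 above 0 in GV16 vs SHAM. Srebf2 had 184, 184 and 180 CPM in SHAM, 186, 170 and 159 CPM in MOG, 155, 174 and 175 CPM in GB20 and 175, 150 and 155 CPM in GV16. Srebf1, whose SREBP1 product mainly drives fatty acid genes, had 126, 122 and 124 CPM in SHAM, 140, 156 and 135 CPM in MOG, 129, 164 and 129 CPM in GB20 and 126, 128 and 162 CPM in GV16. Both genes were tight in SHAM and more spread in the immunized groups, Srebf2 below SHAM in all 6 needled libraries and Srebf1 above SHAM in all 3 MOG and all 3 GB20 libraries.

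Insig2, the INSIG gene that is less responsive to sterols, had 47.7, 47.3 and 44.1 CPM in SHAM, 49.8, 44.6 and 50.4 CPM in MOG, 48.5, 46.3 and 43.9 CPM in GB20 and 52.0, 50.2 and 48.2 CPM in GV16. Its GV16 libraries were above the SHAM libraries, with a log2 fold change of 0.11 (SE 0.0767), opposite in sign to that of Insig1. None of Srebf1, Srebf2, Insig2 and Scap was called by edgeR in any of the 6 comparisons.

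**Figure D4:**
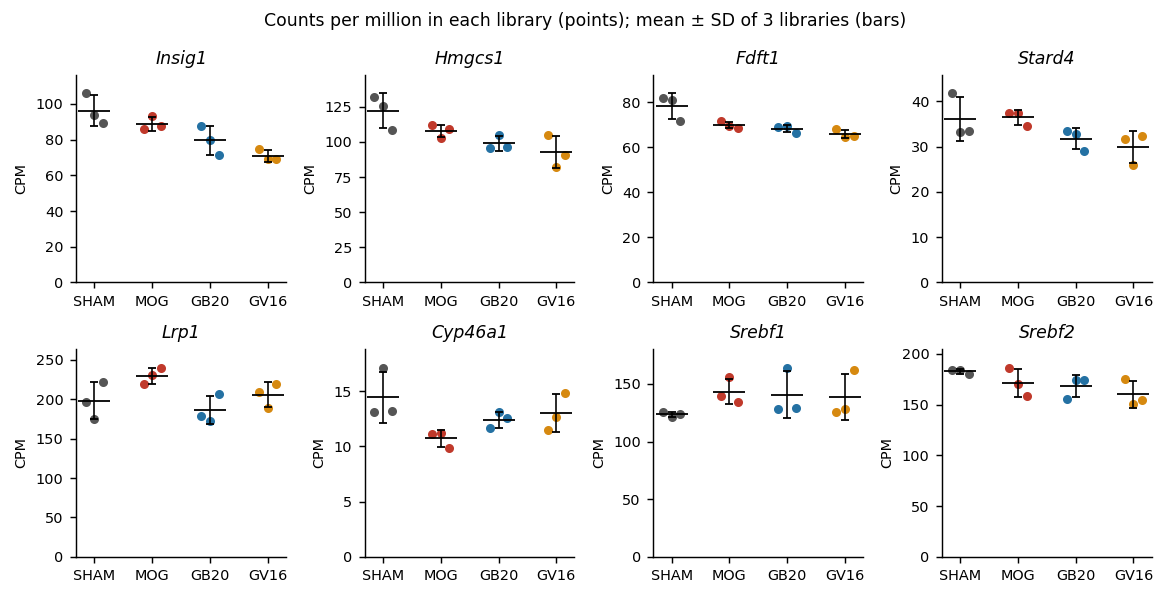
CPM of 8 genes in each library (points) with the mean ± SD of 3 libraries per group (bars), on axes that start at 0. Insig1 averages 96.3 CPM in SHAM and 71.0 CPM in GV16, and Hmgcs1 122 and 92.5 CPM.

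In GB20 vs SHAM the same pair had the smallest p of the members without being called. Hmgcs1 had a log2 fold change of -0.30 (SE 0.0857) and adjusted p = 0.150, and Insig1 of -0.27 (SE 0.0810) and adjusted p = 0.179, both in the Benjamini-Hochberg adjusted edgeR fit and both without overlap between the groups. That test called 0 of 30 members, against 0.344% of genes, as did DESeq2 and limma-voom. With the replicate block, 182 genes were called in place of 63, and 0 members. At an unadjusted p under 0.05 there were 4 members, all lower (Acat2, Hmgcs1, Fdft1 and Insig1), against 9.06% of genes, and groups did not overlap for 6 members, against 12.7%. Of the 18 enzymes 17 were fitted below 0, with a median of -0.095. The enzyme median was -0.15 without SHAM replicate 3 and -0.14 without GB20 replicate 1. It was weaker without SHAM replicate 1, at -0.066, and with the length trend removed, at -0.081. Over all genes tested the median was 0.00085, and 49.7% were below 0. Hmgcs1 was called without the low-count filter, and with the block and the length trend removed together.

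The comparisons of needled with immunized mice asked what needling changed. In GB20 vs MOG the smallest p belonged to Lrp1, an endocytic receptor for lipoproteins and many other ligands, with 219, 231 and 240 CPM in MOG and 179, 173 and 207 CPM in GB20. Every GB20 library was below every MOG library, and SHAM, at 196, 176 and 222 CPM, and GV16, at 209, 189 and 220 CPM, overlapped both. The log2 fold change was -0.30 (SE 0.0873), with adjusted p = 0.273 in the Benjamini-Hochberg adjusted edgeR fit. Lrp1 was called in the fits of the 6 libraries by edgeR and by DESeq2, without the low-count filter and with the replicate number as a block. Lrp1 is longer than 99% of the genes tested, and over the same 12769 genes the fold change correlated with gene length at a rho of -0.351 in GB20 vs MOG, -0.129 in GV16 vs MOG and -0.337 in GB20 vs GV16. With each library's trend on length removed the value for Lrp1 was -0.20.

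Npc2, which hands cholesterol to NPC1 in the lysosome, had 45.7, 46.6 and 38.5 CPM in SHAM, 42.4, 41.7 and 39.8 CPM in MOG, 50.3, 46.2 and 47.4 CPM in GB20 and 41.1, 47.6 and 42.7 CPM in GV16, with a log2 fold change of 0.22 (SE 0.0846) in GB20 vs MOG. Its GB20 libraries were all above its MOG libraries, without passing the test. In total 0 of 30 members were called in GB20 vs MOG by edgeR, against 0.24% of genes, and 0 by DESeq2 on 12 libraries and by limma-voom. At an unadjusted p under 0.05 there were 4 members (Lss and Lrp1 lower, Mvk and Npc2 higher), against 8% of genes, and groups did not overlap for 9, against 15.7%. The enzymes had a median of -0.052 with 11 of 18 below 0, beside 0.00084 over all genes tested, of which 49.8% were below 0. The enzyme median was -0.014 without GB20 replicate 3, -0.034 without GB20 replicate 2, -0.089 without GB20 replicate 1 and -0.082 with the length trend removed.

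In GV16 vs MOG, Insig1 again had the smallest p, with a log2 fold change of -0.32 (SE 0.0818) and adjusted p = 0.194 in the Benjamini-Hochberg adjusted edgeR fit. Stard4, a sterol carrier of the cytosol, had 41.8, 33.2 and 33.5 CPM in SHAM, 37.4, 37.5 and 34.5 CPM in MOG, 33.5, 32.7 and 29.1 CPM in GB20 and 31.6, 26.0 and 32.3 CPM in GV16. Its GV16 libraries lay below its MOG libraries, at -0.28 (SE 0.102), without passing the test. edgeR called 0 of 30 members, against 0.164% of genes, and DESeq2 on 12 libraries and limma-voom called 0. The fits of the 6 libraries by edgeR and by DESeq2, the fit without the low-count filter and the fit with the replicate block each called Insig1. At an unadjusted p under 0.05 there were 8 members, 7 lower (Acat2, Hmgcs1, Lss, Sc5d, Dhcr7, Insig1 and Stard4) and Cyp46a1 higher, against 5.3% of genes. Groups did not overlap for 12 members, 10 lower (8 of them synthesis enzymes, Msmo1 and Sc5d among them) and 2 higher (Pmvk and Cyp46a1), against 12.6% of genes. Of the 18 enzymes 16 were fitted below 0, Ebp among them at -0.026, with a median of -0.14 beside 0.0024 over all genes, of which 49.1% were below 0.

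**Figure D5:**
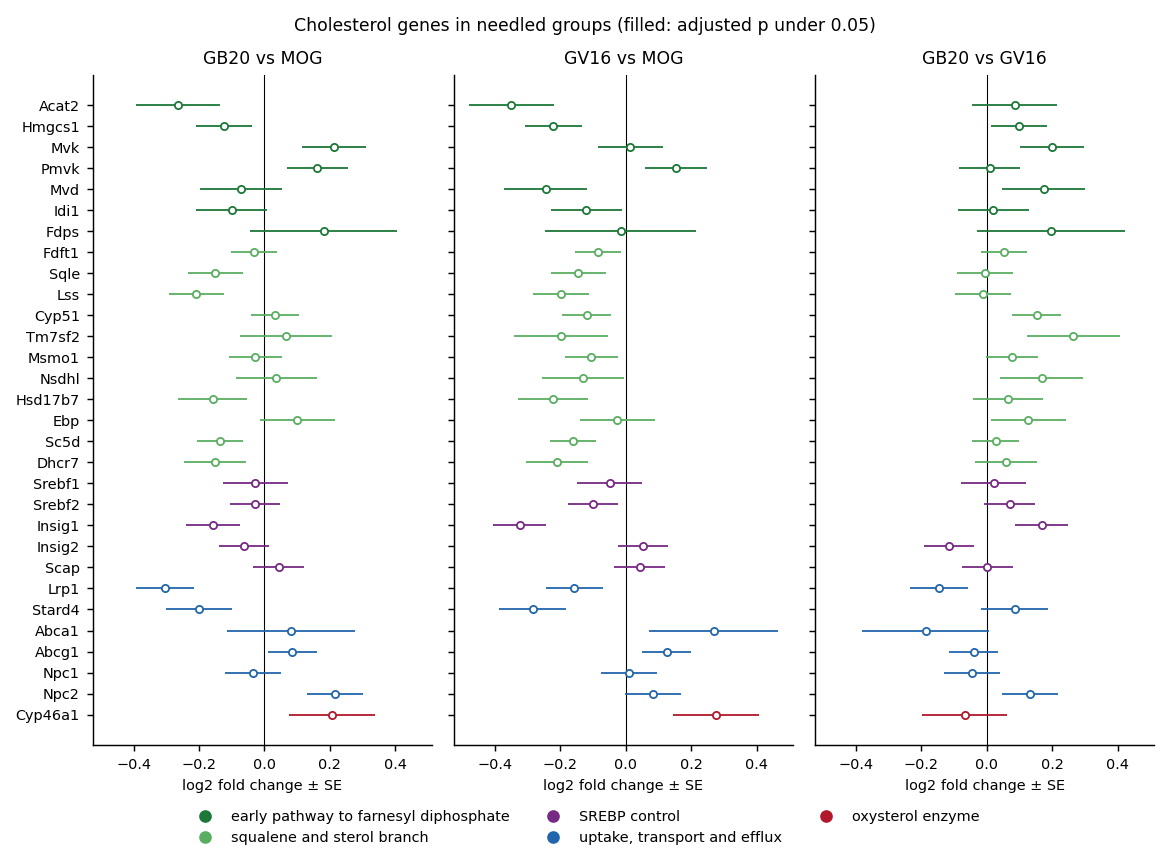
Fitted log2 fold change ± SE of the 30 genes for each needled group against MOG and for GB20 against GV16. No point is filled, since none passed an adjusted p under 0.05, and Insig1 is at -0.16, -0.32 and 0.17.

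GB20 and GV16 were compared directly to ask whether the needling sites differed, since a call at 1 site alone does not show a difference between them. Insig1 had the smallest p, with a log2 fold change of 0.17 for GB20 over GV16 and a 95% interval from -0.0027 to 0.34, and it was 0.091 without GB20 replicate 1 and 0.24 without GB20 replicate 3. Cyp51 followed at 0.15, with an interval from -0.0033 to 0.31. For Hmgcs1 the difference was 0.098, with an interval from -0.081 to 0.28. edgeR called 0 of 30 members, against 0.00546% of genes, 0 members had an unadjusted p under 0.05, against 2.93% of genes, and DESeq2 and limma-voom called 0. Groups did not overlap for 3 members, all higher in GB20 (Mvk, Cyp51 and Tm7sf2), against 8.34% of genes. Of the enzymes 16 of 18 were fitted above 0, with a median of 0.081 beside 0.00097 over all genes tested, of which 49.7% were below 0. The 6 comparisons share libraries, so their values are not independent of one another.

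Of the 6 genes of uptake, transport and efflux 5 were fitted above 0 and 1 below 0 in GV16 vs SHAM, with a median of 0.0575. Stard4 was at -0.27 (SE 0.102), its GV16 libraries below its SHAM libraries, without passing the test. Abca1, which exports cholesterol to apolipoproteins, had the highest fitted log2 fold change of the members in GV16 vs SHAM at 0.52, with SE 0.197 and overlapping groups, and it did not pass the test. Its libraries ranged from 36.2 to 59.0 CPM in SHAM and from 58.8 to 82.7 CPM in GV16. Abcg1, its partner in efflux, had 96.4, 93.7 and 108 CPM in SHAM, 89.1, 102 and 95.7 CPM in MOG, 94.9, 106 and 104 CPM in GB20 and 98.9, 108 and 106 CPM in GV16. All 4 groups overlapped for Abcg1. The median of the 12 members that are not synthesis enzymes was 0.032 in GV16 vs SHAM, with 5 of 12 below 0.

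Around the members, 59 further sterol-linked genes were listed in 7 lists, and 56 were tested. Of these, 0 were called by edgeR in any of the 6 comparisons. Among all genes tested the called share was 0.00546% (GB20 vs GV16) to 1.34% (MOG vs SHAM), so 0 of 56 is near that share. From 0 (GB20 vs GV16, against 2.93% of all genes) to 10 (GV16 vs SHAM, against 10.9%) of 56 had an unadjusted p under 0.05. The gene with the smallest p was Fntb in the isoprenoid branch (log2 fold change -0.23 in GB20 vs SHAM), Erlin1 in SREBP processing (0.29 in GB20 vs MOG), Elovl5 among SREBP fatty acid targets (-0.28 in GV16 vs SHAM) and Arl4c among LXR targets (-0.25 in GV16 vs SHAM). In the remaining lists it was Lipa among lysosomal and carrier genes (-0.25 in GV16 vs SHAM), Vldlr among lipoprotein receptors (0.16 in GV16 vs SHAM) and Cyp27a1 among oxysterol enzymes (0.43 in GB20 vs MOG).

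Markers of retinal cell types moved in the same libraries. Of 11 retinal ganglion cell markers 10 were called lower in MOG vs SHAM, 10 in GV16 vs SHAM and 4 in GB20 vs SHAM. All 11 had an unadjusted p under 0.05 in each of these comparisons, with a median log2 fold change of -0.90, -0.78 and -0.58. Their summed level was 992, 922 and 876 CPM in SHAM, 594, 492 and 494 CPM in MOG, 584, 587 and 611 CPM in GB20 and 669, 525 and 463 CPM in GV16, with Nefl the most abundant. Every immunized library lay below every SHAM library in this sum.

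Of 9 astrocyte and gliosis markers 6 were called higher in MOG vs SHAM, 5 in GB20 vs SHAM and 3 in GV16 vs SHAM, while Osmr was called lower in both needled groups against MOG and Fgf2 lower in GV16 vs MOG. They summed to 88.1, 96.9 and 88.7 CPM in SHAM, 188, 211 and 213 CPM in MOG, 189, 172 and 146 CPM in GB20 and 140, 127 and 177 CPM in GV16, with Fgf2 the most abundant. Every immunized library was above every SHAM library.

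Of 11 Müller glia markers Aqp4 and Crym were called higher in MOG vs SHAM, Car14 higher and Aqp4 and Crym lower in both needled groups against MOG, and Rlbp1 lower in GV16 vs SHAM (log2 fold change -0.36). These markers summed to 4090, 3995 and 3860 CPM in SHAM, 3920, 3508 and 3634 CPM in MOG, 3692, 3832 and 3953 CPM in GB20 and 4007, 3790 and 3874 CPM in GV16, with Glul the most abundant. Their sum in GV16 overlapped that in SHAM.

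Of 8 microglia and macrophage markers Csf1r, the most abundant, was called higher in MOG and in GV16 against SHAM and C1qa in MOG against SHAM, with sums of 25.5, 27.2 and 19.6 CPM in SHAM, 35.8, 34.0 and 38.3 CPM in MOG, 40.1, 34.5 and 32.8 CPM in GB20 and 38.9, 35.3 and 35.1 CPM in GV16. Every immunized library was above every SHAM library in this sum.

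Of 10 oligodendrocyte and myelin markers 4 were tested, and Cnp was called higher in MOG vs SHAM and lower in both needled groups against MOG. They summed to 62.4, 66.9 and 66.0 CPM in SHAM, 72.1, 101 and 70.9 CPM in MOG, 57.3, 63.5 and 63.8 CPM in GB20 and 64.9, 63.1 and 56.7 CPM in GV16, with Mbp the most abundant, and MOG replicate 2 was the highest. Among 7 cone markers Opn1mw was called higher in GV16 vs SHAM (0.35), and the sums were 1359, 1547 and 1436 CPM in SHAM, 1314, 1362 and 1344 CPM in MOG, 1477, 1440 and 1501 CPM in GB20 and 1307, 1531 and 1505 CPM in GV16, with Opn1sw the most abundant.

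No tested gene was called in any comparison in the lists of rod, bipolar, amacrine and horizontal, pigment epithelium and choroid (9 of 10 tested), vessel, lens (1 of 7 tested) and erythrocyte (3 of 5 tested) markers. Pigment epithelium and choroid markers summed to 22.3, 27.8 and 19.9 CPM in SHAM, 36.6, 51.1 and 37.8 CPM in MOG, 40.4, 45.9 and 39.0 CPM in GB20 and 23.3, 62.8 and 37.2 CPM in GV16, with Ttr the most abundant. Every MOG and GB20 library was above every SHAM library in this sum, and GV16 replicate 1 lay within the SHAM range. The median log2 fold change of these markers was 0.28 in MOG vs SHAM, 0.55 in GB20 vs SHAM and 0.54 in GV16 vs SHAM, and 4, 5 and 3 of them had an unadjusted p under 0.05.

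Vessel markers summed to 207, 170 and 169 CPM in SHAM, 197, 192 and 205 CPM in MOG, 173, 173 and 180 CPM in GB20 and 182, 146 and 165 CPM in GV16, with Kdr the most abundant. Their median log2 fold change was -0.26 in GB20 vs MOG and -0.29 in GV16 vs MOG, and -0.30 and -0.29 against SHAM. All libraries of both needled groups lay below all MOG libraries in this sum, and both overlapped SHAM. Lens markers summed to 11.4 CPM in SHAM replicate 2 and 7.24 CPM in GB20 replicate 2, against 0.681 to 1.68 CPM elsewhere. No marker of any list was at 0 in all 12 libraries. The part of any of these cell types in the levels of Insig1, Hmgcs1 and the other enzymes was not tested.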

How the data were processed

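Retinal poly(A) RNA of 12 mouse libraries was sequenced. The authors aligned reads with HISAT2 2.0.5 to mm10, as the submitters' processing notes give, and counted them per gene with featureCounts; the strand setting and annotation release were not given in the sources used here. They deposited counts per gene, and they deposited FPKM computed from those counts, gene length and library total. Counts were used as deposited for all tests and FPKM only for levels between genes. Gene names and coordinates came from GENCODE vM21 (GRCm38). Members and lists were chosen with earlier results of these data known.

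Genes were filtered (filterByExpr), scaled by TMM and tested in R 4.3.3 with edgeR 4.0.16 (quasi-likelihood, robust) on all 12 libraries, with 1 mean per group and Benjamini-Hochberg adjustment over 18299 genes; a gene was called at an adjusted p under 0.05, at any size. SE is the log2 fold change divided by the square root of F, and intervals are 95%. The script was tested on simulated data. The study's methods give 3 repeats of the experiment, and labels number libraries 1 to 3 in each group without saying that a number marks a repeat. Pairing was therefore read from the data. Deviations from group means of same-number libraries correlated at 0.176 to 0.469 between SHAM and GB20 and at 0.177 to 0.243 between SHAM and GV16, all 3 pairs over 0.1 in each. By that bar numbers were taken to pair the libraries in these 2 comparisons. Libraries with different numbers also passed it, up to 0.252 between MOG replicate 2 and GV16 replicate 3, so the bar alone does not identify pairs. Between GB20 and GV16 same-number libraries correlated at -0.123 to 0.0572, and SHAM replicate 1 correlated at 0.180 with GB20 replicate 3, above its 0.176 with GB20 replicate 1. A repeat would be shared by all groups, so pairing by comparison does not settle what the numbers mark, and the block was fitted in every comparison. This reading by comparison was made after the fits were seen. All 30 members are named. Every library's value is given for members called in any comparison, for the 2 with the smallest p in each comparison and for the most abundant member of each of 5 roles. Srebf1, Srebf2 and Insig2 meet none of these rules and are given per library beside Insig1. Abca1 was singled out after its values were seen. Of the other sterol-linked genes, those called are named, or else the gene with the smallest p of each list. Alternatives were RLE scaling, no low-count filter, DESeq2 1.42.0, limma-voom (limma 3.58.1), fits of the 6 libraries compared, a replicate block, removal of the length trend, leaving out each library, the block with the length trend removed in the 2 paired comparisons (chosen after seeing the data), and, for FPKM, a pseudocount of 0.1 in place of 1 and a minimum mean of 1. Markers covered 13 cell type lists. Python 3.11.15 and matplotlib 3.10.9 were also used.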

Additional observations from a re-analysis of the deposited data

How the results depend on the processing

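Of 244 alternative values for single members, 226 kept their direction and side of the threshold and 0 reversed. Some of these fits left out a library of a group that was not compared. For the members called in GV16 vs SHAM, 18 of 21 alternatives kept the call of Insig1 and 16 of 21 that of Hmgcs1. Members called in MOG vs SHAM and GB20 vs GV16 numbered 0 under every alternative. In GB20 vs MOG and in GV16 vs MOG, where 0 were called, 1 was called (Lrp1 and Insig1) without the low-count filter, with the replicate block, and by edgeR or DESeq2 on the 6 libraries. Without the filter 1 was called in GB20 vs SHAM in place of 0, and 4 in GV16 vs SHAM in place of 2. On the 6 libraries of GV16 vs SHAM edgeR called 1 and DESeq2 called 2. Leaving out 1 library gave 0 to 5 in GV16 vs SHAM and 0 in the others. Insig1 in GV16 vs SHAM ranged from -0.49 to -0.37 and Hmgcs1 from -0.50 to -0.32, with adjusted p (edgeR, DESeq2 or limma) from 2.77e-05 to 0.0914 and from 0.000159 to 0.216. Of 122 alternative enzyme medians 120 moved by less than 0.0612, the SD between libraries. That bar is larger than the size of the GB20 vs MOG median of -0.052, so the count cannot show that small medians are stable. Leaving out 1 library gave -0.14 to -0.023 in MOG vs SHAM and -0.26 to -0.17 in GV16 vs SHAM. With the length trend removed the medians were -0.037 in MOG vs SHAM in place of -0.091 and -0.082 in GB20 vs MOG in place of -0.052. The cause of these shifts was not tested.

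By correlation, replicate numbers were taken to pair the libraries in GB20 vs SHAM and GV16 vs SHAM only. Of the 12 same-number pairs in the other comparisons 2 correlated over 0.1. Over all comparisons 10 of 12 libraries correlated best with their own number. The study's methods give 3 repeats of the experiment without tying numbers to them, so numbers may mark repeats in every comparison. With the replicate block, members called numbered 0 in MOG vs SHAM, 1 in GB20 vs MOG, 1 in GV16 vs MOG, 0 in GB20 vs GV16, 0 in GB20 vs SHAM and 2 in GV16 vs SHAM. The block changed no call of a member in the comparisons taken as paired, and it added Lrp1 in GB20 vs MOG and Insig1 in GV16 vs MOG. Enzyme medians with the block were -0.089, -0.054, -0.13, 0.078, -0.091 and -0.19. With the block and the length trend removed together, chosen after seeing the data, 1 was called in GB20 vs SHAM (Hmgcs1) and 3 in GV16 vs SHAM, of 235 and 327 genes.

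Calls over all genes were 245, 44, 30, 1, 63 and 120 in the order above, against 404, 73, 47, 1, 182 and 236 with the replicate block and 539, 140, 73, 8, 282 and 395 without the filter. DESeq2 on 12 libraries called 5, 152 and 202 in the last 3. On the 6 libraries edgeR called 118 in GB20 vs MOG, 48 in GV16 vs MOG, 3 in GB20 vs GV16 and 66 in GV16 vs SHAM, and DESeq2 126, 57, 4 and, in GB20 vs SHAM, 124. With the length trend removed GB20 vs SHAM gave 116. Leaving out 1 library gave 91 to 427, 13 to 83, 10 to 38, 0 to 4, 14 to 116 and 23 to 231. Fdps, at 34 to 62 counts, was the member with the lowest counts.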
